A study of Gallus gallus with 9 samples.

Results

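Ion channel genes of the voltage-gated calcium, voltage-gated sodium, TRP, HCN and PIEZO families were followed along the basilar papilla of the chick. They were chosen by the start of their gene symbol, which had to be CACNA, CACNB, CACNG, SCN with a digit, TRPA, TRPC, TRPM, TRPV, TRPML, MCOLN, PKD, HCN with a digit, or PIEZO. *CACNA1D*, the pore of the L-type channel of hair cell synapses, and *CACNB2*, a beta subunit, were left out by the rule. Of the 24880 genes in the table, 52 chosen in this way are described. 2 of them, *PKDCC* and *TRPC4AP*, share the letters but encode a secreted protein kinase and an adaptor protein, and are no channel subunits. RNA was taken from pieces of apex, middle and base of the basilar papilla, the strip of hair cells and supporting cells in the cochlear duct of birds. The chickens were untreated and at post-hatch day 1, and their strain and genotype are not given in the sources used here. Each region had 3 replicates, a replicate pooled 8 cochleas of 4 chickens, and the methods imply, without stating it, that same-numbered libraries of the 3 regions share their chickens. Values are FPKM, which scale the fragments of a gene to its transcript length and to the mapped fragments of the library, so that levels can be set beside each other between genes.

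Voltage-gated channels open when the membrane potential changes. A calcium channel is built from a pore-forming alpha1 subunit (CACNA1 genes) with alpha2delta and beta subunits that bring it to the membrane and tune its gating, and several of the CACNG genes encode partners of AMPA receptors instead. Sodium channels join a pore (SCN genes ending in A) to single-pass beta subunits (SCN genes ending in B). HCN channels open on hyperpolarization and carry a mixed cation current that cyclic nucleotides tune, TRP channels are mostly non-selective cation channels with many different openers, and PIEZO channels open on membrane stretch. In the cochlea, calcium entry at the ribbon synapse drives transmitter release from hair cells, sodium and HCN channels shape the firing of the auditory neurons, and hair cells of several species also carry HCN currents.

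The summed FPKM per library lay between 660314 and 741975, and 12477 to 12779 genes reached 1 FPKM. The numbers of fragments are not stated in the table. Hair cell markers were present in every library, and their summed level over 15 genes was 346 to 548 FPKM in apex, 212 to 369 FPKM in middle and 100.2 to 189 FPKM in base. Supporting cell markers over 8 genes followed the same order, at 524 to 753, 399 to 650.1 and 175 to 309.8 FPKM. Of the 15 hair cell markers 11 were higher in apex than in base by the test described below. Of the 8 supporting cell markers 5 were, where 7.15% of all genes tested were higher. The hair cell markers *USH1C*, *CHRNA9*, *CDH23* and *TMC1* did not pass. With the replicate number as a block, *USH1C* and *CHRNA9* were called higher in apex (limma adjusted p = 0.00102 and 0.00525). *TMC1* was called lower in apex with the block (adjusted p = 0.00865). *CDH23* averaged 9.68 FPKM in apex and 9.6 FPKM in base, and *TMC1* 1.43 and 2.64 FPKM. Among the supporting cell markers *OTOG*, *JAG1* and *FGFR3* did not pass, and *FGFR3* was called higher in apex with the block (limma adjusted p = 0.000631). Neuron markers over 14 genes summed to 247 to 1682, 317 to 3327 and 257 to 864 FPKM, with replicate 2 the highest in each region, and *PRPH* was listed at 0. Schwann cell markers over 9 genes reached 2055 to 2895, 1945 to 3110 and 1228 to 1483 FPKM, while fibroblast and mesenchyme markers over 5 genes, with *COL1A1* at 0, were at 3060 to 3897, 3099 to 4000 and 3952 to 4768 FPKM.

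Of the 52 genes, 36 had a region mean of 1 FPKM or more and were tested, and 14 of them had a mean of at least 10 over the 9 libraries. Regions were set against each other in limma fits of log2(FPKM + 1) over all 13045 genes that passed the same filter. A gene was called different at a Benjamini-Hochberg adjusted p under 0.05 with means that differed 1.5-fold or more. Log2 fold changes below refer to log2(FPKM + 1), where changes of low genes come out smaller, and ratios to the mean FPKM. In a piece of tissue, fewer cells of a type and less RNA per cell cannot be told apart.

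**Figure D1:**
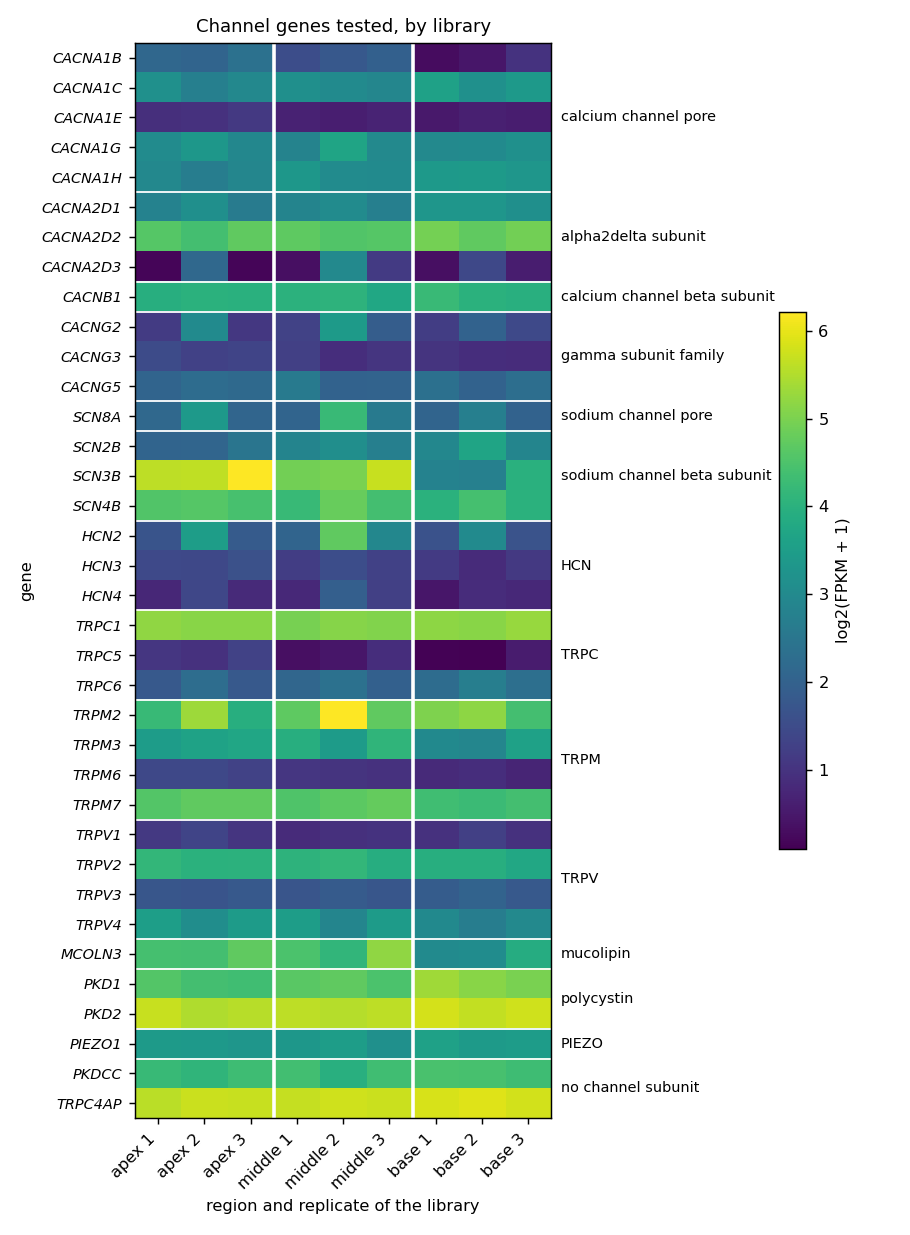
Heat map of log2(FPKM + 1) for the 36 channel genes tested (rows, grouped by role) in the 9 libraries (columns, apex, middle and base, replicates 1 to 3). *SCN3B*, *CACNA1B* and *MCOLN3* are brighter in apex and middle than in base, and *HCN2*, *SCN8A*, *CACNG2*, *CACNA2D3* and *TRPM2* are brightest in the libraries numbered 2.

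Between apex and base, 8 of the 36 genes tested were called. *SCN3B*, *CACNA1B*, *MCOLN3*, *TRPC5* and *TRPM6* were higher in apex, and *SCN2B*, *PKD1* and *CACNA1H* were lower in apex. That is 13.9% higher and 8.33% lower, where 7.15% and 4.66% of all genes tested, 11.8% in both directions together, were called. *TRPC5* and *CACNA1E*, which was not called, passed the filter through apex alone and could only be higher there, and without them 7 of 34 genes were called, 11.8% higher and 8.82% lower. *CACNA1B* and *TRPM6*, still in that count, had base means of 0.529 and 0.75 FPKM. They entered through apex and middle, where they were higher than in base. The same holds for *CACNG3* and *HCN4* (0.904 and 0.647 FPKM in base), which were called with the block. Over all 36 genes the median log2 fold change was 0.08, against -0.01 over all genes tested. With the replicate number as a block, 12 were called, with *HCN3*, *CACNA1E* and *CACNG3* added among the 8 higher and *TRPC6* among the 4 lower, and 10 without *TRPC5* and *CACNA1E*, where 9.57% and 5.49% of all genes, 15.1% together, were. When the 3 libraries numbered 2 were left out, which was decided after seeing the data, 4 were called, *SCN3B*, *CACNA1B*, *PKD1* and *TRPC6*. Between middle and base, *SCN3B*, *CACNA1B* and *MCOLN3* were called, all higher in middle, where 2.93% of all genes were higher and 1.46% lower, 4.39% together. That count was 6 with the block, all higher, against 7.63% of all genes higher and 2.25% lower, 9.87% together, with *HCN2*, *HCN4* and *TRPM3* added. Between apex and middle, limma called 0 of the 36 genes, beside 0.0613% of all genes, 0.046% higher and 0.0153% lower. An unadjusted p under 0.05 was found in 5 of the 36, *TRPC5* and *CACNA1E* among them, and in 1175 of all 13045 genes. With the block *SCN3B* alone was called, against 1.43% of all genes higher and 0.682% lower, 2.11% together.

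Every library of apex lay above every library of base for 12 genes and below for 7, where 20.7% and 22.0% of all genes did so. These shares were 33.3% and 19.4% of the 36. Middle was wholly above base for 6 genes, 16.7%, and wholly below for 7, 19.4%, against 14.1% and 16.6% of all genes. Apex was wholly above middle for 7 genes, 19.4%, and wholly below for 2, 5.56%, against 6.78% and 6.07%. The 12 genes with apex above base and the 7 with apex above middle both include *TRPC5* and *CACNA1E*. These passed the filter through apex alone and could only be higher there, which raises both shares. The 12 also include *CACNA1B*, *TRPM6* and *CACNG3*, which passed the filter through apex and middle and not through base. The 5 genes higher in apex, *TRPC5* included, all met the study's Up-trend definition (a mean in apex at least 1.5 times that in base, with each step towards apex at a ratio of at least 0.85), and the 3 lower genes met its mirror, the Down-trend, where 7.03% and 4.61% of all genes tested did. With the block these were 8 and 4 genes, against 9.15% and 5.36%. A call between apex and base already needs the 1.5-fold ratio, so meeting these definitions adds little to it. Among all genes 917 were Up-trend, beside 933 called higher in apex, both without the block.

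**Figure D2:**
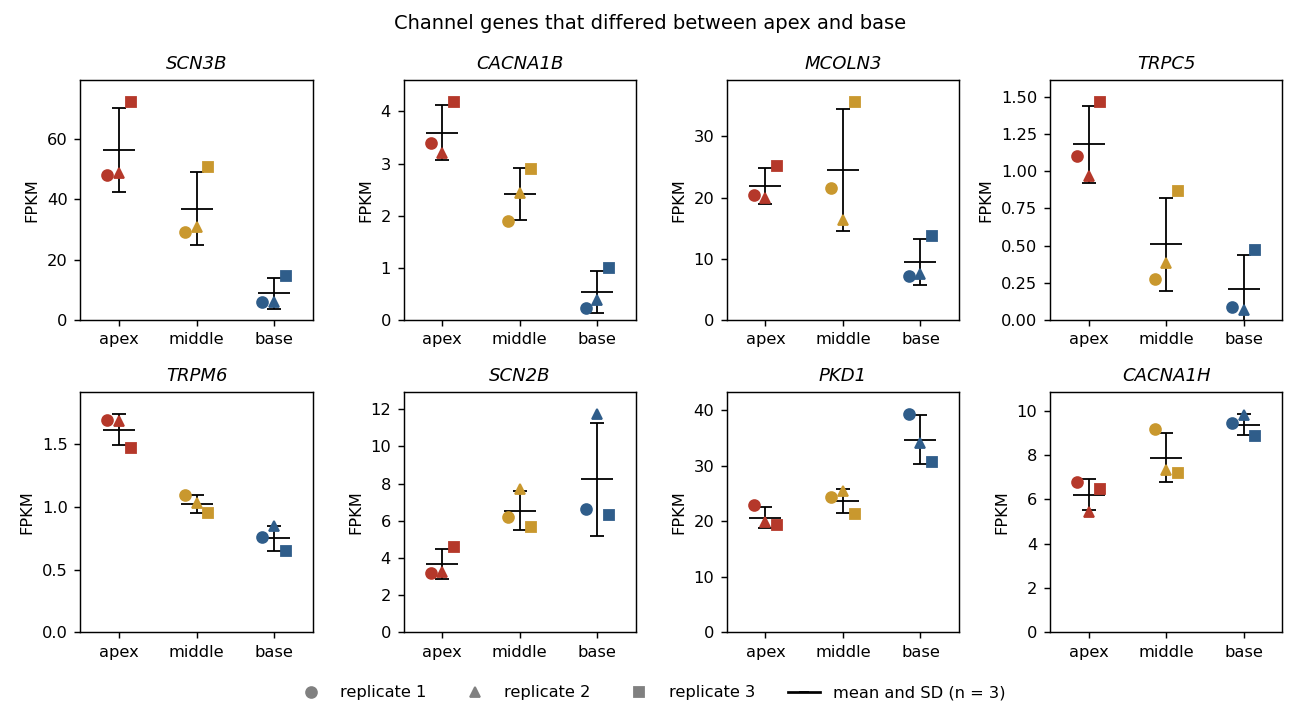
FPKM (linear axis from 0) of the 8 channel genes called between apex and base, by region, with 1 point per library, the shape giving the replicate, and the mean and SD of 3 libraries as lines (lower bars end at 0). Apex and base do not overlap in any of the 8, and middle lies near apex for *MCOLN3* (16.3 to 35.7 FPKM) and near base for *SCN2B* (5.68 to 7.72 FPKM), while *TRPC5*, which passed the filter through apex alone, is shown as a description.

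**Figure D3:**
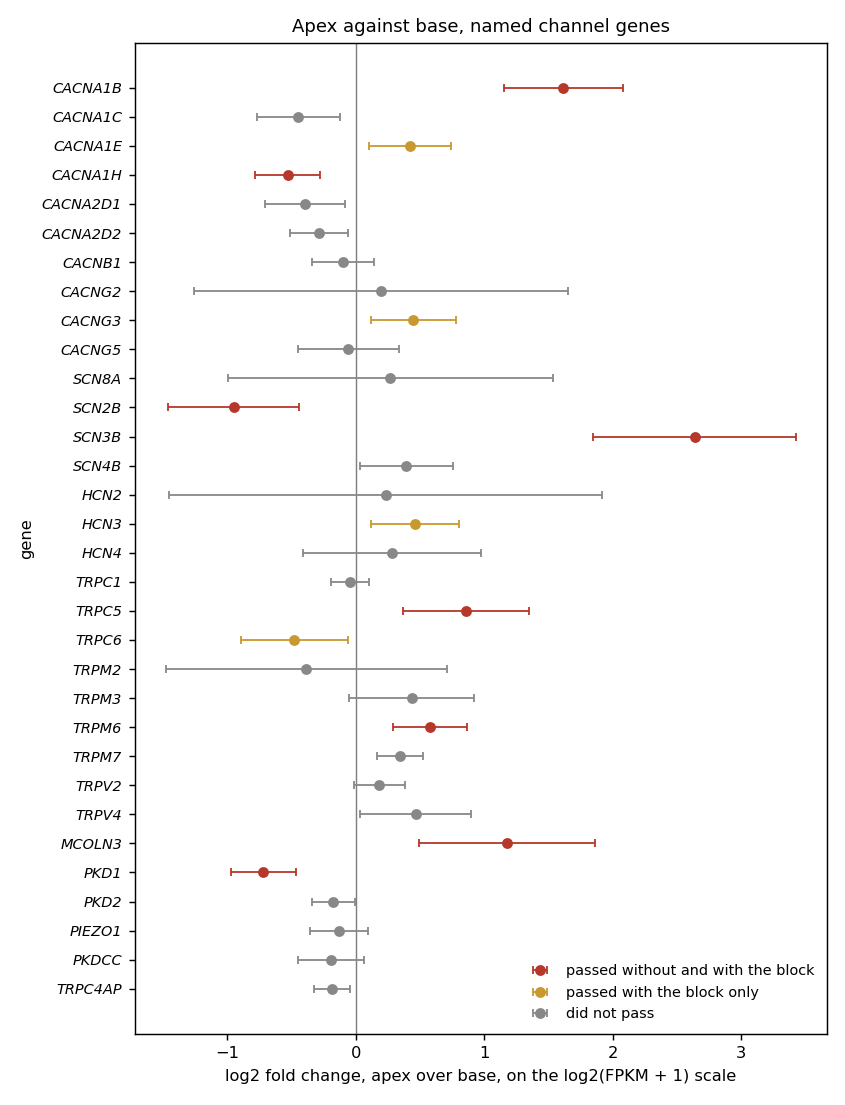
Log2 fold change of apex over base on the log2(FPKM + 1) scale (points) with 95% confidence intervals from limma without the block (bars) for the 32 channel genes chosen to be named. *SCN3B* at 2.64 and *CACNA1B* at 1.61 stand farthest above 0 and *SCN2B* at -0.95 farthest below, *TRPC5* and *CACNA1E* are a description, and the widest intervals belong to *HCN2*, *CACNG2*, *SCN8A* and *TRPM2*.

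Among the calcium channel pores, *CACNA1B* was higher in apex and in middle, *CACNA1H* was lower in apex, while the summed level of the 7 genes was 25.4 ± 1.01 FPKM in apex, 26.5 ± 2.55 FPKM in middle and 27.5 ± 1.15 FPKM in base (SD, n = 3). *CACNA1B* (ENSGALG00000008456, galGal5 chr17:2601746-2859437) encodes the N-type channel, which triggers transmitter release at many neuronal synapses. Its replicates 1 to 3 were at 3.39, 3.21 and 4.19 FPKM in apex, 1.91, 2.44 and 2.89 FPKM in middle and 0.223, 0.376 and 0.988 FPKM in base. The 3 regions did not overlap, with apex above middle and middle above base in every library. In apex the mean was 6.8 times that of base (log2 fold change 1.61 ± 0.20 SE, limma adjusted p = 0.00172), and the middle mean was 4.56 times the base mean (1.18 ± 0.20 SE, adjusted p = 0.0164). The apex call was kept in all 9 fits that left out a library. The middle call was lost without middle replicate 3 (adjusted p = 0.0768), base replicate 1 (0.0642) or base replicate 2 (0.0677). Its share of the summed pores, without *CACNA1D* and with *CACNA1A* listed at 0, was 14.1 ± 2.12% in apex, 9.18 ± 2.38% in middle and 1.91 ± 1.43% in base (SD, n = 3).

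*CACNA1H* (chr14:5264613-5339317), a T-type channel that opens at low voltages, had replicates at 6.76, 5.42 and 6.46 FPKM in apex, 9.17, 7.31 and 7.17 FPKM in middle and 9.43, 9.82 and 8.87 FPKM in base. All 3 apex libraries lay below all 3 base libraries and below all 3 middle libraries. The apex mean was 0.663 times the base mean (log2 fold change -0.53 ± 0.11 SE, limma adjusted p = 0.0117), just past the ratio needed. Without apex replicate 2 the log2 fold change was -0.45 and without base replicate 2 it was -0.50, and in both fits the gene was no longer called because the ratio fell under 1.5. *CACNA1C* (chr1:61471636-61671542), the L-type channel of heart and smooth muscle, ran the same way at 6.79 ± 1.19 FPKM in apex, 7.18 ± 0.687 FPKM in middle and 9.6 ± 1.49 FPKM in base without passing the test (log2 fold change -0.44, 95% interval -0.77 to -0.12, adjusted p = 0.0541). It was called without apex replicate 1 (adjusted p = 0.0376) or base replicate 2 (0.0441). Smooth muscle and pericyte markers, over 9 genes with *CNN1* listed at or near 0, summed to 366 to 459 FPKM in apex, 406 to 509 FPKM in middle and 481 to 548 FPKM in base, and their part in these levels was not tested.

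*CACNA1E* (chr8:5721919-5794586), the R-type channel, was low at 0.903, 0.952 and 1.16 FPKM in apex, 0.615, 0.525 and 0.636 FPKM in middle and 0.435, 0.548 and 0.497 FPKM in base. It passed the filter through apex alone, so its ratio of 2.04 over base is a description. *CACNA1G*, the other T-type pore measured above the filter, was at 7.63 ± 1.28 FPKM in apex, 8.23 ± 3.05 FPKM in middle and 7.34 ± 0.528 FPKM in base and is uncertain, since its locus entry in the table is shared with another gene. *CACNA1S*, the skeletal muscle pore, stayed at or under 0.282 FPKM, and *CACNA1A*, the P/Q-type pore, was listed at 0 in every library and sits on an unplaced contig.

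Of the alpha2delta subunits, *CACNA2D2* and *CACNA2D1* ran slightly lower in apex and middle than in base without a call. *CACNA2D2* (chr12:1481230-1608215) was the highest of the 3 at 22.8 ± 2.75 FPKM in apex, 23.6 ± 1.23 FPKM in middle and 27.9 ± 2.33 FPKM in base, and its locus entry is shared with 3 other genes. *CACNA2D1* (chr1:10220631-10584619), a target of gabapentin drugs, had replicates at 6.06, 7.77 and 5.28 FPKM in apex, 6.26, 7.26 and 5.66 FPKM in middle and 8.99, 8.94 and 7.86 FPKM in base. All of its apex and middle libraries lay below all base libraries, by ratios of 0.741 and 0.744 that did not reach the threshold (limma adjusted p = 0.0722 and 0.119). Without apex replicate 2 it was called in apex (adjusted p = 0.0254). The third alpha2delta gene, *CACNA2D3*, was set by replicate more than by region, and is described with the libraries numbered 2. The beta subunit measured here, *CACNB1* (chr27:4527283-4531060), was nearly level at 14.7 ± 0.464 FPKM in apex, 14.5 ± 1.84 FPKM in middle and 15.8 ± 1.74 FPKM in base (log2 fold change of apex over base -0.1, 95% interval -0.34 to 0.15).

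The CACNG family was low, and 3 of its 6 genes were tested. *CACNG3* (chr14:6779890-6797096), an AMPA receptor partner, was at 1.83, 1.42 and 1.54 FPKM in apex, 1.4, 0.87 and 1.06 FPKM in middle and 1.02, 0.859 and 0.836 FPKM in base. Its apex libraries lay above its middle and its base libraries, and it passed the test with the block (limma adjusted p = 0.0221) and not without it (0.0581). *CACNG5* (chr18:7370025-7381626) was at 3.52 ± 0.302 FPKM in apex, 3.75 ± 1.18 FPKM in middle and 3.72 ± 0.563 FPKM in base with no order between regions. Its neighbours on chromosome 18, *CACNG4* 23.0 kb away and *CACNG1*, the gamma subunit of skeletal muscle, a further 6.6 kb away, stayed at or under 0.252 and 0.0502 FPKM. *CACNG7* was listed at 0 throughout.

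Genes whose proteins bind or place calcium channels were higher in apex than in base in 5 of the 7 tested, with 0 lower, beside 7.15% of all genes that were higher. *RIMBP2*, which ties calcium channels to release sites, averaged 9.91, 6.65 and 2.73 FPKM in apex, middle and base (log2 fold change of apex over base 1.57, limma adjusted p = 0.00214). *CABP2*, a calmodulin-like regulator whose loss causes hearing loss in humans, averaged 73, 32.8 and 31.7 FPKM, and was higher in apex than in base (1.16, adjusted p = 0.00139) and than in middle (1.11, adjusted p = 0.0354). *STAC*, an adaptor protein that binds L-type channels, showed the same shape at 15.6, 6.58 and 6.76 FPKM and was called in apex against base (1.06, adjusted p = 0.00479). In apex against middle *STAC* was called with the block only (adjusted p = 0.0119, against 0.104 without). *CABP1* and *RIMS2*, another calmodulin-like protein and a scaffold of the active zone, averaged 27.8, 33 and 14.8 FPKM and 3.88, 3.78 and 1.43 FPKM and were higher in apex (adjusted p = 0.0216 and 0.0069) and, with *RIMBP2*, in middle (adjusted p = 0.0237, 0.0233 and 0.0262). *RIMS1*, a related scaffold, was called in apex and in middle against base with the block only (adjusted p = 0.0221 and 0.0327), and *ERC2* in no comparison.

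Among the sodium channel genes, the calls fell on beta subunits, with *SCN3B* higher and *SCN2B* lower in apex. *SCN3B* (ENSGALG00000006490, chr24:2887643-2893626), which modulates the gating of sodium channel pores, had the largest log2 fold change of the 36 genes in apex against base, although its ratio of means was a little under that of *CACNA1B*. Its replicates were at 48, 48.9 and 72.5 FPKM in apex, 29.2, 30.9 and 50.8 FPKM in middle and 6.0, 5.81 and 14.7 FPKM in base. Every apex and every middle library was above every base library, and replicate 3 was the highest in each region. Apex averaged 6.39 times base (log2 fold change 2.64 ± 0.35 SE, limma adjusted p = 0.00189), and the middle mean was 4.18 times the base mean (2.02 ± 0.35 SE, adjusted p = 0.0161). Apex was 1.53 times middle, with overlapping libraries, and was called against middle with the block (adjusted p = 0.0361) and not without it (0.699). Leaving out any library kept the apex call, with log2 fold changes of 2.43 to 3.03, while the middle call was lost without middle replicate 3 (adjusted p = 0.0677), base replicate 1 (0.0709) or base replicate 2 (0.0662).

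*SCN2B* (chr24:5425639-5428446), a beta subunit that is disulphide-linked to the pore, went the other way. Its replicates were at 3.21, 3.23 and 4.59 FPKM in apex, 6.23, 7.72 and 5.68 FPKM in middle and 6.65, 11.8 and 6.32 FPKM in base. Each apex library lay below each middle and each base library, and base replicate 2 stood far above the other base libraries. The apex mean was 0.446 times the base mean (log2 fold change -0.95 ± 0.22 SE, limma adjusted p = 0.0178). That call was lost without apex replicate 1 (adjusted p = 0.0573) or apex replicate 2 (0.055), and without the 3 libraries numbered 2 the log2 fold change was -0.63 (adjusted p = 0.0511). *SCN4B* (chr24:5417708-5420171), which lies 5.5 kb from *SCN2B* on chromosome 24 and is known for resurgent sodium currents, did not share its direction. It was at 22.2 ± 1.51 FPKM in apex, 21.5 ± 4.67 FPKM in middle and 16.8 ± 2.96 FPKM in base, with each apex library just above each base library and a log2 fold change of 0.39 (95% interval 0.03 to 0.76, adjusted p = 0.112).

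The shares of the 3 beta subunits in their summed level are a description, with no test. *SCN3B* was 68 ± 5.45% of their summed FPKM in apex, 56.2 ± 9.64% in middle and 25.9 ± 13.1% in base (SD, n = 3). *SCN2B* was 4.44 ± 0.231%, 10.3 ± 2.5% and 24.2 ± 6.83%, and *SCN4B* 27.6 ± 5.68%, 33.4 ± 7.39% and 49.9 ± 6.89%. The share of *SCN4B* was lowest in apex although its own mean was highest there (22.2 FPKM, against 16.8 FPKM in base), since the sum also holds *SCN3B*. The libraries of apex and middle overlapped in the shares of *SCN3B* and *SCN4B*. The sum itself was 82.3 ± 13.3 FPKM in apex, 65 ± 11.6 FPKM in middle and 33.8 ± 5.46 FPKM in base.

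**Figure D4:**
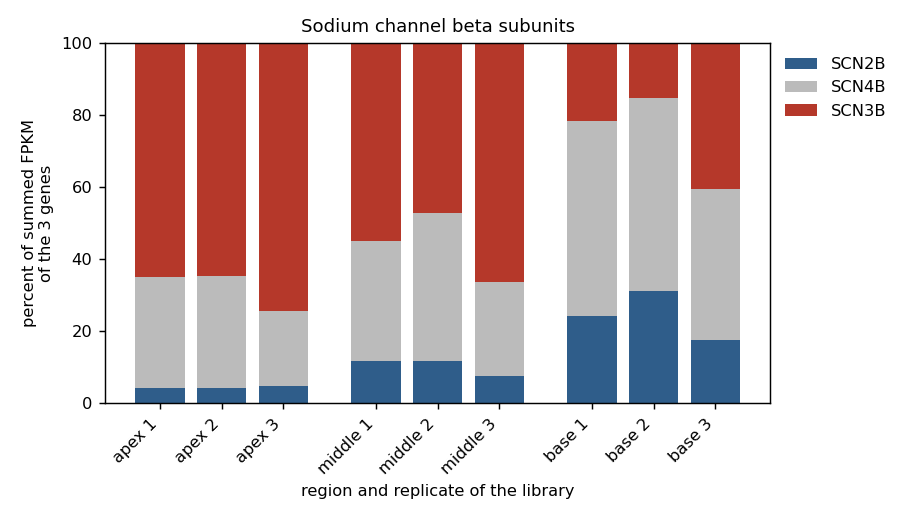
Stacked bars of the percent of the summed FPKM of *SCN2B*, *SCN4B* and *SCN3B* that each gene took, 1 bar per library, apex to the left and base to the right. *SCN3B* took 64.7% to 74.3% in the apex libraries, 47.3% to 66.4% in middle and 15.4% to 40.6% in base.

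The only pore tested, *SCN8A* (chr33:82470-121757), the channel of nodes of Ranvier, had replicates at 3.5, 9.39 and 3.28 FPKM in apex, 3.16, 17.8 and 5.06 FPKM in middle and 3.19, 5.71 and 3.07 FPKM in base. Replicate 2 was the highest in each region and the regions overlapped, so the log2 fold change of apex over base was 0.27 with an interval of -1.0 to 1.53. *SCN9A*, a pore of sensory neurons, was under the filter at 0.835 ± 0.154 FPKM in apex, 0.816 ± 0.149 FPKM in middle and 0.432 ± 0.0214 FPKM in base, and *SCN4A*, the skeletal muscle pore, stayed at or under 0.128 FPKM. Of 6 tested partners of sodium channels 1 was higher in apex and 0 were lower, beside 7.15% and 4.66% of all genes. *ANK3*, the anchor of sodium channels at axon initial segments and nodes, averaged 22.9, 21.9 and 14.6 FPKM in apex, middle and base (log2 fold change 0.62, limma adjusted p = 0.0237). *FGF12*, which binds the tail of the pore, passed with the block only (0.00277, against 0.192 without), and with the block both genes were also called in middle against base.

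*HCN2*, *HCN4* and *HCN3* were called with the block and not without it. *HCN2* (chr28:2711394-2723081), which responds strongly to cyclic AMP, had replicates at 2.21, 10.4 and 2.59 FPKM in apex, 3.2, 25.5 and 6.59 FPKM in middle and 2.12, 7.15 and 2.17 FPKM in base. Replicate 2 was the highest in each region, and the regions overlapped. Within replicate numbers the order was middle, apex, base 3 times of 3, and middle against base passed with the block (log2 fold change 1.13, limma adjusted p = 0.00829) and not without it (0.367). *HCN4* (chr10:1953570-2049857), the slow pacemaker channel of the heart, behaved alike at 0.698, 1.64 and 0.759 FPKM in apex, 0.755, 2.88 and 1.37 FPKM in middle and 0.386, 0.827 and 0.728 FPKM in base, with an adjusted p of 0.0375 for middle against base with the block and 0.227 without. *HCN3* (chr25:2183619-2189104) was low at 1.82 ± 0.205 FPKM in apex, 1.54 ± 0.319 FPKM in middle and 1.05 ± 0.229 FPKM in base, with apex and middle above base in every library, and passed in apex with the block (adjusted p = 0.0487, against 0.0573 without). It also passed without the block when no low values were filtered (0.0362), without the intensity trend (0.0279) or without middle replicate 2 (0.0469). Of 4 tested partners 1 was higher in apex and 0 were lower, beside 7.15% and 4.66% of all genes. The higher gene was *PEX5L*, which controls the traffic of HCN channels in mammalian neurons, at 2.69, 1.34 and 0.942 FPKM in apex, middle and base (log2 fold change 0.95, adjusted p = 0.0157). In apex against middle *PEX5L* was called with the block only (adjusted p = 0.0376, against 0.369 without). *KCNE2*, *LRMP* and *MRVI1* were not called.

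TRPC channels open downstream of phospholipase C. *TRPC1* (chr9:10547997-10568737) was the most abundant and almost level at 34.5 ± 0.943 FPKM in apex, 31.9 ± 1.69 FPKM in middle and 35.6 ± 1.86 FPKM in base (log2 fold change of apex over base -0.04, 95% interval -0.19 to 0.11). *TRPC5* (chr4:13131065-13192353), known from growth cones of neurons, was low and graded, with replicates at 1.1, 0.969 and 1.47 FPKM in apex, 0.278, 0.383 and 0.867 FPKM in middle and 0.0891, 0.0672 and 0.468 FPKM in base. Every apex library was above every other library, and replicate 3 was the highest in each region. It passed the filter through apex alone, so its log2 fold change of 0.86 over base is a description. *TRPC6* (chr1:183074878-183166584), opened by diacylglycerol, was lower in apex within each replicate number, at 2.5, 3.85 and 2.51 FPKM in apex, 3.32, 4.18 and 2.9 FPKM in middle and 3.82, 5.58 and 4.05 FPKM in base. It passed with the block (log2 fold change -0.48, adjusted p = 0.00469) and not without it (0.0991), and it also passed without apex replicate 2 (0.0468). *TRPC4* stayed under the filter at 0.846 ± 0.45 FPKM in apex, 0.376 ± 0.208 FPKM in middle and 0.265 ± 0.0513 FPKM in base, with its 3 highest libraries being apex 3, apex 1 and middle 3, and *TRPC7* did not pass 0.132 FPKM.

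In the TRPM family, *TRPM6* (chrZ:36724825-36775900), a channel with an attached kinase known for magnesium uptake, was higher in apex than in base, with middle between them. Its replicates were at 1.7, 1.68 and 1.47 FPKM in apex, 1.1, 1.03 and 0.952 FPKM in middle and 0.756, 0.848 and 0.645 FPKM in base. The 3 regions did not overlap. The apex mean was 2.16 times the base mean (log2 fold change 0.58 ± 0.13 SE, limma adjusted p = 0.0128), a call kept in all 9 fits that left out 1 library. Without middle replicate 1, however, the middle mean fell under 1 FPKM. In that fit *TRPM6* passed the filter through apex alone and could only be higher there. The call was lost under quantile normalization (adjusted p = 0.0533) and without the 3 libraries numbered 2 (0.0671). Where at least 6 libraries had to reach 1 FPKM, *TRPM6* was not tested, since middle replicate 3 and all base libraries were below. Its relative *TRPM7* (chr10:10771190-10824262), the other channel with a kinase, was far more abundant at 24.6 ± 1.35 FPKM in apex, 24.4 ± 2.16 FPKM in middle and 19.2 ± 0.792 FPKM in base. *TRPM7* passed the adjusted p in apex (0.0163) and in middle (0.0403) against base, with ratios of 1.28 and 1.27 that stayed under 1.5, so it was not called.

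*TRPM3* (chrZ:35080942-35338893), a heat- and steroid-activated channel, had its highest mean in middle, at 11.2 ± 0.916 FPKM in apex, 13.5 ± 3.16 FPKM in middle and 8.21 ± 2.61 FPKM in base. Middle against base passed with the block (limma adjusted p = 0.012) and not without it (0.0869), and its locus entry is shared with 3 other genes. It also passed in middle without middle replicate 2 (0.0397) or base replicate 3 (0.0321), and in apex without base replicate 3 (0.041). *TRPM2* (chr9:5193102-5205511), opened by ADP-ribose under oxidative stress, ranged widely, at 17.5, 38.8 and 14.3 FPKM in apex, 24.9, 73.4 and 25.5 FPKM in middle and 31.8, 35.4 and 19.9 FPKM in base. No region stood apart, and the log2 fold change of apex over base was -0.38 with an interval of -1.47 to 0.71. *TRPM5* and *TRPM8*, channels of taste cells and cold-sensing neurons, did not pass 0.0785 and 0.24 FPKM.

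The TRPV genes gave no call in any comparison. *TRPV2* (chr19:6593485-6601322) was the highest at 15.7 ± 0.993 FPKM in apex, 15.4 ± 1.4 FPKM in middle and 13.7 ± 0.923 FPKM in base, with each apex library above each base library and a log2 fold change of 0.18 (95% interval -0.01 to 0.38). *TRPV4* (chr15:6894024-6899794), an osmotically and mechanically sensitive channel of inner ear and other epithelia, was at 10.6, 7.5 and 9.99 FPKM in apex, 10.4, 6.34 and 9.9 FPKM in middle and 7.05, 5.46 and 6.84 FPKM in base. Its apex libraries all lay above its base libraries at a ratio of 1.45, and its limma adjusted p was 0.114 without and 0.00322 with the block, where the ratio still missed 1.5. *TRPV1*, the capsaicin receptor of mammals, averaged 1.24, 0.903 and 1.09 FPKM in apex, middle and base, and *TRPV3*, 12.2 kb from it, 2.35, 2.4 and 2.77 FPKM. *TRPA1*, the irritant receptor, was under the filter at 0.622 ± 0.151 FPKM in apex, 0.614 ± 0.0627 FPKM in middle and 0.292 ± 0.0853 FPKM in base, with every apex and middle library above every base library.

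Of the mucolipins, cation channels of endosomes and lysosomes, *MCOLN3* alone passed the filter. Dominant mutations of this gene cause deafness and hair cell loss in the varitint-waddler mouse. *MCOLN3* (ENSGALG00000008709, chr8:16436853-16451748) had replicates at 20.4, 19.9 and 25.2 FPKM in apex, 21.5, 16.3 and 35.7 FPKM in middle and 7.14, 7.42 and 13.8 FPKM in base. All apex and all middle libraries were above all base libraries, and apex and middle overlapped. Its apex mean was 2.31 times its base mean (log2 fold change 1.18 ± 0.30 SE, limma adjusted p = 0.0244) and the middle mean 2.6 times (1.27 ± 0.30 SE, adjusted p = 0.0371). The apex call was lost in 5 of the 9 fits that left out a library, with adjusted p of 0.0556, 0.0508 and 0.0847 without apex replicates 1, 2 and 3 and of 0.0929 and 0.0844 without base replicates 1 and 2. The middle call was lost in 7 of the 9, with adjusted p between 0.0516 and 0.14, and held without middle replicate 2 or base replicate 3. With the block the adjusted p was 0.000665 for apex and 0.00122 for middle. *MCOLN2*, 2.0 kb away on chromosome 8, did not pass 0.364 FPKM, and *MCOLN1* was listed at 0 on an unplaced contig.

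Polycystins are proteins of primary cilia, where the large membrane protein PKD1 joins the channel PKD2. *PKD1* (ENSGALG00000005714, chr14:6339857-6452644) was lower in apex, with replicates at 22.9, 19.8 and 19.2 FPKM in apex, 24.3, 25.4 and 21.2 FPKM in middle and 39.3, 34.1 and 30.6 FPKM in base. Each apex and each middle library was below each base library. The apex mean was 0.595 times the base mean (log2 fold change -0.72 ± 0.11 SE, limma adjusted p = 0.00318), and the call was kept in all 9 fits that left out 1 library. Middle against base passed the adjusted p (0.0266) at a ratio of 0.682, short of the 1.5-fold criterion in this direction, and was called without middle replicate 2 (0.031) or base replicate 3 (0.0273). The locus entry of *PKD1* is shared with another gene, so its values are uncertain. *PKD2* (chr4:45959958-45974346), the second highest of the 52 genes by the mean over all 9 libraries, was at 46.9 ± 3.62 FPKM in apex, 46.9 ± 1.1 FPKM in middle and 53 ± 3.18 FPKM in base and was not called (log2 fold change -0.17, 95% interval -0.34 to -0.01). *PKD2L1* and *PKD2L2* did not pass 0.0343 and 0.579 FPKM.

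*PIEZO1* (chr11:18681594-18700558) was steady at 9.36 ± 0.438 FPKM in apex, 9.15 ± 1.22 FPKM in middle and 10.4 ± 0.685 FPKM in base, with a log2 fold change of -0.13 of apex over base (95% interval -0.36 to 0.09). Of its 3 tested partners 0 were called without the block, where 11.8% of all genes were called between apex and base. *MDFI* was lower in apex with the block only (limma adjusted p = 0.000951, against 0.0985 without). The inositol trisphosphate receptor *ITPR1* was the only one of 10 tested genes of store-operated and endolysosomal calcium release to be called, a share near that of all genes. *ITPR1* was at 44, 40.9 and 27.4 FPKM in apex, middle and base (log2 fold change 0.67 for apex over base, adjusted p = 0.0278). The 2 genes that are no channel subunits, *PKDCC* (chr3:23383274-23414870) and *TRPC4AP* (chr20:2688941-2721644), were at 17.6 ± 1.43 FPKM in apex, 17.8 ± 2.72 FPKM in middle and 20.2 ± 1.19 FPKM in base and at 49.99 ± 2.29 FPKM in apex, 52.4 ± 1.76 FPKM in middle and 56.9 ± 2.41 FPKM in base, and neither was called. By the mean over all 9 libraries *TRPC4AP* was the most abundant of the 52 genes, although *SCN3B* was above it in apex.

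The hair cell and the supporting cell sums were both higher in each apex than in each base library and highest in replicate 3 of each region. *SCN3B*, *CACNA1B*, *MCOLN3* and *TRPC5*, all called higher in apex, had the same profile, as did *TRPM7*, which was not called. *TRPM6*, in contrast, was lowest in replicate 3 of each region. The Schwann cell and skeletal muscle sums were also higher in each apex than in each base library. The erythrocyte sum was also highest in replicate 3 of each region. Replicate 3 was highest in every region for 6 of the 36 genes, 16.7%, against 12.1% of all genes. Set against the hair cell sum of the same library, the genes did not keep a common ratio. *SCN3B* was 10.4 to 14.2 FPKM per 100 FPKM of hair cell markers in apex and 10.98 to 14.6 in middle, above 5.13 to 7.76 in base. *CACNA1B* likewise was 0.74 to 0.93 in apex and 0.72 to 1.15 in middle, above 0.19 to 0.52 in base. *MCOLN3* was 4.44 to 5.76 in apex, under 7.72 to 9.68 in middle and 6.10 to 7.41 in base. The hair cell sum leans on its most abundant genes, which differ in slope. *OTOF* averaged 130, 60.3 and 21.7 FPKM in apex, middle and base, and *MYO6* 75.2, 60.9 and 39.8 FPKM. The ratios therefore depend on the markers summed and are no level per hair cell. These ratios were chosen after the values were seen and carry no test. The macrophage sum over 9 genes was, like *SCN2B*, *PKD1* and *CACNA1H*, lower in each apex than in each base library. It was 202 to 231 FPKM in apex, 217 to 262 FPKM in middle and 260.5 to 311 FPKM in base. The median log2 fold change over its genes was -0.38, and 0 of the 9 were called, beside 11.8% of all genes. *CSF1R*, *CTSS* and *C1QC* passed the limma adjusted p (0.0016, 0.0187 and 0.032), lower in apex, but missed the 1.5-fold ratio. The other macrophage genes did not pass the adjusted p. The smooth muscle and pericyte sum was also lower in each apex library, at 366 to 459 FPKM against 481 to 548 FPKM in base, with a median of -0.10. Of its genes *PDGFRB* was called lower in apex than in base (log2 fold change -0.68, limma adjusted p = 0.00264). Its other tested genes were not called there and differed in direction. *TAGLN*, *RGS5* and *MYLK* were at -0.52, -0.24 and -0.21, *DES* was level, and *MYH11*, *ABCC9* and *KCNJ8* were at 0.25, 0.20 and 0.18. *MYH11* was called higher in middle than in base (41.7 against 15.4 FPKM, adjusted p = 0.0244). The fibroblast and mesenchyme sum was also lower in each apex library, but single genes differed in direction, with *DCN* at a log2 fold change of -0.56 and *LUM* at 0.35, and the median was 0.06. The part of these cell types in the differences was not tested.

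Another pattern followed the replicate number, in some genes beside a difference between regions. Replicate 2 was the highest of the 3 libraries in every region for 9 of the 36 genes, 25.0%, against 13.2% of all genes tested. These were *HCN2*, *HCN4*, *SCN8A*, *SCN4B*, *CACNG2*, *CACNA2D3*, *TRPC6*, *TRPM2* and *TRPC4AP*. For *HCN2*, replicate 2 was 4.32 times the mean of the other 2 libraries in apex, 5.22 times in middle and 3.34 times in base. *CACNG2* (chr1:51688915-51735455), stargazin, the AMPA receptor partner lost in the stargazer mouse, was at 1.24, 7.18 and 1.11 FPKM in apex, 1.45, 9.71 and 2.75 FPKM in middle and 1.31, 3.06 and 1.73 FPKM in base, and *CACNA2D3* (chr12:7323310-7733469) at 0.134, 3.49 and 0.131 FPKM in apex, 0.274, 6.82 and 1.21 FPKM in middle and 0.272, 1.69 and 0.5 FPKM in base, both with a locus entry shared with another gene. Their replicate 2 stood 6.11, 4.63 and 2.02 times and 26.3, 9.19 and 4.37 times above the others in apex, middle and base.

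The neuron marker sum had the same profile, at 247, 1682 and 292 FPKM in replicates 1 to 3 of apex, 317, 3327 and 767 FPKM in middle and 257, 864 and 291 FPKM in base. This sum leans on its most abundant genes, with *NEFM* at 1161 FPKM and *NEFL* at 893 FPKM in middle replicate 2. The markers *NTRK2*, *NTRK3*, *SYT1* and *GAP43* were not highest in replicate 2 of every region, so ratios to the sum depend on the markers chosen. Per 100 FPKM of neuron markers, *HCN2* was 0.62 to 0.89 FPKM in apex, 0.77 to 1.01 in middle and 0.74 to 0.83 in base, a narrow range for a gene whose own level ran between 2.12 and 25.5 FPKM. *SCN8A* was 0.56 to 1.42, 0.54 to 0.998 and 0.66 to 1.24 in apex, middle and base, and *CACNG2* 0.38 to 0.5, 0.29 to 0.46 and 0.35 to 0.59. *TRPM2* ranged more widely, at 2.31 to 7.1, 2.21 to 7.87 and 4.1 to 12.4. These genes were chosen for the ratio after their values were seen. The part of nerve tissue in the libraries was not tested, and with 1 library per region and number, a pool of chickens and a dissection cannot be told apart.

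**Figure D5:**
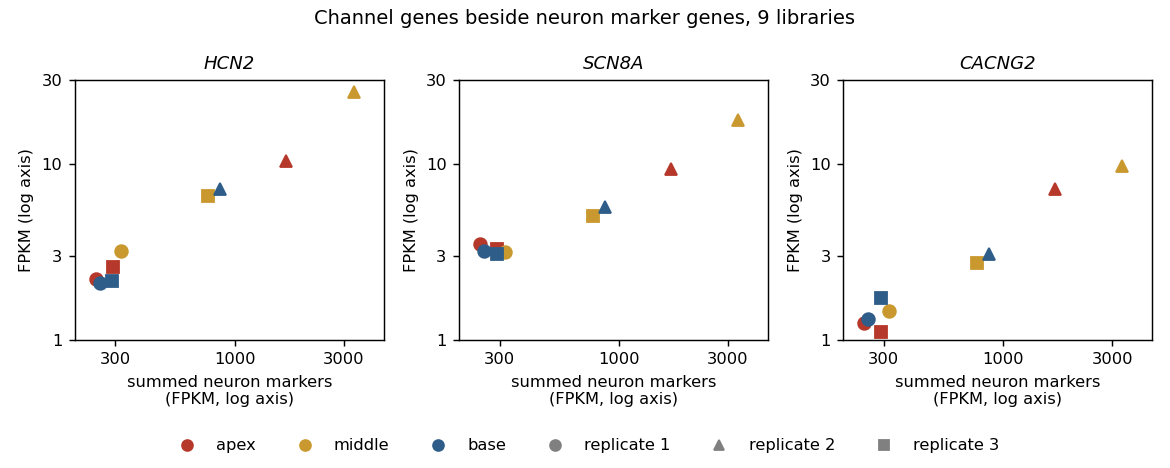
FPKM of *HCN2*, *SCN8A* and *CACNG2* (vertical, log axis) against the summed FPKM of 14 neuron marker genes (horizontal, log axis) in the 9 libraries, colour for region and shape for replicate. All 3 genes climb with the neuron sum and are highest in middle replicate 2, at 25.5 FPKM for *HCN2*.

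Of the 16 genes not tested, 3 were listed at 0 in every library (*CACNA1A*, *CACNG7* and *MCOLN1*), and the highest value of any was 1.30 FPKM, for *TRPC4* in apex replicate 3. Just outside the filter, the highest region means were 0.846 FPKM for *TRPC4* and 0.835 FPKM for *SCN9A*, and just inside it 1.00 FPKM for *CACNA1E* and 1.18 FPKM for *TRPC5*, all 4 in apex. In all, 21 of the 36 genes tested were called in no comparison, with or without the block, and a p that missed the threshold does not show that their levels were equal.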

How the data were processed

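RNA of apex, middle and base of the chick basilar papilla was sequenced after oligo-dT enrichment as 101-bp paired-end reads, with 3 replicates per region and 9 libraries. Reads were aligned by the authors with STAR 2.5.4b (galGal5, at most 3 mismatches), and gene FPKM values from Cuffdiff 2.2.1 with Ensembl release 91 were deposited for each library. The library kit is not known to keep strand, so reads of overlapping genes cannot be told apart, and 6 of the 52 channel genes share a locus entry. Coordinates are of galGal5 and 1-based. Depth per library is not part of the table, so no counting interval was computed.

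The 13045 genes with a region mean of 1 FPKM or more entered a limma 3.58.1 fit (R 4.3.3) of log2(FPKM + 1) on region over all 9 libraries, with an intensity trend. Tests were two-sided, with Benjamini-Hochberg adjustment over these genes. limma took the place of the study's Cuffdiff test, which starts from alignments, and the study's thresholds were kept. Same-numbered libraries deviated from their region means together (correlation 0.368 to 0.66 in 9 pairs, against -0.52 to 0.151 in 18 others), so blocked fits are given where they change a call that is described. The deviations within a region cancel for each gene. Positive values in the 9 pairs therefore pull the 18 others towards negative values, and the 18 are no independent reference. The numbers come from the library titles.

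Genes were named if called in any comparison with or without the block, if among the 2 highest of their role with a mean of at least 1 FPKM, or if at a mean of at least 10 FPKM. Others are given by level or with the libraries numbered 2. The members, gene lists and tests were chosen with earlier results of these data known. Alternatives were a pseudocount of 0.1, other filters, quantile and median-ratio scaling, no intensity trend, the block, 6 libraries, other fold criteria and each library left out. The fit was tested on simulated data. Of the RefSeq symbols of assembly GRCg7b that fit the rule, 15, *PIEZO2* and *SCN1A* among them, are no symbols of the table and were not analysed here, and 49 of the 52 symbols described are listed there. A further 2 genes that fit the rule stayed in the fits and are not reported here.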

Additional observations from a re-analysis of the deposited data

How the results depend on the processing

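The count of channel genes called between apex and base was 8, and it was 14 with no filter on low values, which added *CACNA1E*, *CACNG3*, *HCN3*, *TRPC7*, *SCN9A* and *TRPA1*, and 4 without the 3 libraries numbered 2. It ranged from 6 to 9 when each library was left out and from 6 to 12 under the other alternatives. Between middle and base 3 were called, 6 with the replicate block, 5 by adjusted p alone, 1 in a fit of only the 6 libraries compared and 0 without the 3 libraries numbered 2. With each library left out the count ranged from 0 to 5, at 0 without middle replicate 3, base replicate 1 or base replicate 2, and at 5 without middle replicate 2 or base replicate 3. Between apex and middle 0 were called under every alternative but the replicate block, which gave 1. Between apex and base the block gave 12, and the genes higher were 8 with it and 5 without.

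Single log2 fold changes kept their side of the threshold and their direction in 661 fits, lost their call in 38, gained it in 26 and turned in direction in 6, all 6 in genes that were not called. For apex over base these were *HCN2* with a range of -0.35 to 0.69 over the fits without 1 library, *CACNG2* (-0.44 to 0.54, and -0.21 without the 3 libraries numbered 2), *CACNG5* (-0.16 to 0.0044) and *SCN8A* (-0.15 to 0.50). The cause was not tested. FPKM values carry no depth, so the error of genes near 1 FPKM, such as *TRPC5* and *CACNA1E*, is known only from the spread of 3 libraries.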

Other observations

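Summed over the 52 genes, the level was 473 ± 17.4 FPKM in apex, 493 ± 55.3 FPKM in middle and 439 ± 7.14 FPKM in base (SD, n = 3), with middle replicate 2 the highest library at 552 FPKM. By role, the sodium channel beta subunits and the mucolipins were lowest in base, the mucolipins at 22.0 ± 3.05, 24.7 ± 10.1 and 9.58 ± 3.78 FPKM in apex, middle and base. The polycystins were highest in base, at 68.0 ± 5.41, 71.0 ± 1.48 and 88.2 ± 6.33 FPKM, as were the alpha2delta subunits, at 30.4 ± 0.806, 32.7 ± 3.36 and 37.3 ± 1.46 FPKM. The 5 TRPC genes described summed to 39.6 ± 0.478, 36.3 ± 2.15 and 40.6 ± 1.66 FPKM, and the TRPV sum was 28.7 ± 2.35, 27.6 ± 1.23 and 24.1 ± 1.00 FPKM. These sums were not tested.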
